A study of Rattus norvegicus with 6 samples.

Results

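The genes described here make cholesterol and fatty acids. They are 34 named genes of 16209 in a liver RNA sequencing table, and all 34 were found by symbol and tested. The first 20, from Hmgcs1 to Stard4, form the arm under SREBP2, the sterol-sensing transcription factor. The other 14, from Fasn onward, form the arm under SREBP1 and ChREBP, which drive fat synthesis. The livers were fibrotic in both groups: 3 rat samples had received only vehicle, and 3 had received 10 mg/kg/day of ginkgetin, a biflavone found in ginkgo leaves. The sources used here do not give how fibrosis was produced or the strain, sex and age. The labels leave unsaid whether samples are different animals, and the spread that p-values rest on may be technical. The columns of the vehicle group carry letters absent from the labels and were assigned by exclusion, and every direction below rests on that assignment. Values are normalized reads, and a log2 fold change is the ginkgetin mean minus the vehicle mean of log2(value + 1).

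Hepatocytes build cholesterol from acetyl-CoA through mevalonate, isoprenoid diphosphates, squalene and lanosterol. SREBP2 switches on the genes of that route when sterols in the endoplasmic reticulum are low, and INSIG proteins hold the SREBP proteins back when sterols are plentiful. Fatty acid synthesis answers to insulin through SREBP1, to oxysterols through LXR, and to sugar metabolites through ChREBP, the product of Mlxipl. The fatty acids made are then joined to glycerol to form triglyceride.

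One vehicle library stood apart. The libraries held 13372367 to 14933853 reads each, so depth was even before normalization. The normalized values did not sum to equal totals. They summed to 15863575, 11768875 and 8265117 in vehicle replicates 1 to 3. In the ginkgetin libraries the totals ran from 16250450.5 to 16991873. A single read counted as 0.614 in vehicle replicate 3 and as 1.11 to 1.24 in the ginkgetin libraries. Results with equal library totals are given below. In vehicle replicate 3 the mean log2 level of 20 hepatocyte markers, centred over the libraries, was -2.04, against 0.40 and -0.12 in vehicle replicates 1 and 2. Its stellate cell and myofibroblast markers lay at 4.05, against -0.50 and 0.36. Of the 34 members 22 had their lowest value in that library, as had 30.1% of all genes tested.

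Most cholesterol genes lay higher in the ginkgetin livers, and the fatty acid genes were mixed. In the SREBP2 arm the 3 ginkgetin values lay above the 3 vehicle values for 12 of 20 genes, against 11.4% of the 14639 genes tested. In the SREBP1 and ChREBP arm this held for 4 of 14. No member lay lower without overlap, against 16.1% of all genes. The median log2 fold change was 1.04 over the SREBP2 arm and 0.64 over the other arm, beside -0.02 over all genes tested. Without vehicle replicate 3 the medians were 0.65 and 0.33, and 12 of 20 and 5 of 14 genes lay higher without overlap, against 14.5% of all genes. The hepatocyte markers had a median of 1.19, and 0.43 without that library. With each library centred on those markers the arm medians turned to -0.14 and -0.54, beside -1.20 over all genes tested. Centred and without vehicle replicate 3 they were 0.20 and -0.12, beside -0.46.

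Single genes were tested with limma, a linear model that shares the estimate of spread between genes. No member passed its Benjamini-Hochberg threshold of 0.05 over all genes, which 0.0137% of genes passed. The smallest adjusted p among them was 0.0953, for Dhcr7. At an unadjusted limma p under 0.05, 10 of 20 SREBP2 arm genes and 4 of 14 of the other arm were higher and 0 were lower, against 7% of all genes higher and 13.2% lower. Without vehicle replicate 3, 9 and 4 members were higher at that p, against 5.68%, and 0 passed the adjusted threshold, against 0.574%. With edgeR, run on recovered whole reads, 0 members passed and 12 were higher at an unadjusted p under 0.05, against 5.57% of all genes. DESeq2 passed 7, all higher: Hmgcs1, Idi1, Fdps, Fdft1, Cyp51, Dhcr7 and Lpin1. It called 1.89% of all genes higher and 7.7% lower, with 0 members among the lower. Limma without vehicle replicate 1 passed 3 members, Hmgcs1, Sc5d and Dhcr7, all higher, against 4.75% of all genes in either direction. Of the 696 genes called in that setting 251 were higher.

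**Figure D1:**
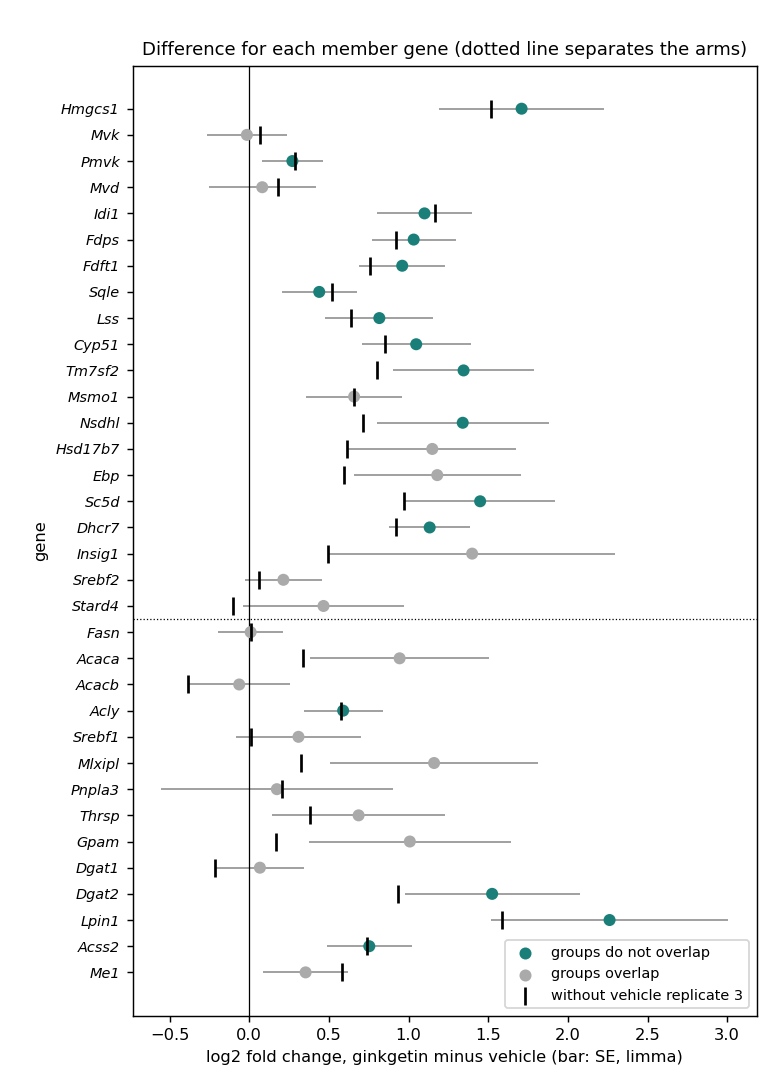
Log2 fold change (ginkgetin minus vehicle, x axis) of each of the 34 members (y axis), with its limma standard error as a bar. Coloured points are members whose groups do not overlap, 12 in the SREBP2 arm and 4 in the other, and black ticks give the value without vehicle replicate 3.

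Promoter sequence was not used to choose the genes. RefSeq promoters of assembly GRCr8, running from 250 bases before to 50 after the start of transcription, were at hand for 26 of the 34 genes. The CCAAT box, the site of NF-Y, a usual partner of SREBP proteins, was searched as CCAAT on both strands. It was present in 14 of 16 SREBP2 arm genes and 9 of 10 of the other arm, against 39.0% of the tested genes with a promoter. The GC box GGGCGG, a site of Sp1, was present in 14 of 16 and 6 of 10, against 60.3%. The E-box CACGTG was present in 2 of 16 genes, Sc5d and Insig1, and in 0 of 10, against 9.21%. The sterol regulatory element in the form TCACNCCAC was in none of the 26 and in 1.19% of the tested genes, which says only that these letters are not in this window. The shorter form TCACNCCA, chosen after that result, occurred in Msmo1, Srebf2 and Mlxipl, against 3.79%. Both strands were searched for each motif, and only the last is contained in another, the longer sterol element.

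The stretches below are the 150 bases before the start of transcription. They are given 5′ to 3′ along the gene for the 4 SREBP2 arm genes and the 2 genes of the other arm with the smallest p among those with a promoter, and for Srebf2. Capitals mark CCAAT or its reverse complement. Within these stretches Fdps and Idi1 carry 2 each, Hmgcs1, Lpin1, Acss2 and Srebf2 carry 1, and Dhcr7 carries 0.
Dhcr7, chr1:208444284-208444433, plus strand: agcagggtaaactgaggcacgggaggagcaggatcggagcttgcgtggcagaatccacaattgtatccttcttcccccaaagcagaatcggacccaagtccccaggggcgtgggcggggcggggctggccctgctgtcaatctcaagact
Fdps, chr2:176804817-176804966, minus strand: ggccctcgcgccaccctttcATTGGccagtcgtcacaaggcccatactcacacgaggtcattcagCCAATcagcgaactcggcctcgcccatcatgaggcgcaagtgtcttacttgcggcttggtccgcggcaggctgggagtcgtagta
Idi1, chr17:66547525-66547674, minus strand: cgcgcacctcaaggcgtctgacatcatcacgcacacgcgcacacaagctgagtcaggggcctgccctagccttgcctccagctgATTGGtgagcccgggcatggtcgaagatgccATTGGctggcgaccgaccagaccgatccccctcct
Hmgcs1, chr2:53382154-53382303, plus strand: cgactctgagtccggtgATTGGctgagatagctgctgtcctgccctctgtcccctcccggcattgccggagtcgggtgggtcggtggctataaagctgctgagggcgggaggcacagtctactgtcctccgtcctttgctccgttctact
Lpin1, chr6:45108943-45109092, minus strand: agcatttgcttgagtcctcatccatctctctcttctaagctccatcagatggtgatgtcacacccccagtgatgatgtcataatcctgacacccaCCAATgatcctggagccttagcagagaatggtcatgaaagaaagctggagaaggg
Acss2, chr3:164464553-164464702, plus strand: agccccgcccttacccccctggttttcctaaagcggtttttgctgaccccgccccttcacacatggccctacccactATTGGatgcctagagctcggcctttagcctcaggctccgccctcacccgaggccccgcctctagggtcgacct
Srebf2, chr7:115543157-115543306, plus strand: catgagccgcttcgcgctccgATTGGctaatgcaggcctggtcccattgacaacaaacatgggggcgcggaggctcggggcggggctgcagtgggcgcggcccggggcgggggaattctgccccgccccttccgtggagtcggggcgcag

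The mevalonate enzymes were uneven. Hmgcs1, the cytosolic synthase that makes HMG-CoA, was measured at 4829, 1598 and 1856 normalized reads under vehicle and at 5581, 10850 and 8277 in the treated livers. The groups do not overlap, although vehicle replicate 1 lay close to ginkgetin replicate 1. Its log2 fold change was 1.71 (SE 0.516, limma adjusted p = 0.144), a 3.27-fold difference. Mvk, Pmvk and Mvd, the 2 kinases and the decarboxylase that turn mevalonate into isopentenyl diphosphate, lay at -0.01, 0.27 and 0.08. Pmvk had 424, 390 and 418 normalized reads under vehicle and 464, 507 and 516 in the treated livers, a small shift without overlap. Mvk ranged from 130 to 165 and Mvd from 77.4 to 150 over the 6 libraries, with overlapping groups.

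After these steps the differences were larger again. Idi1, the isomerase of isopentenyl diphosphate, had 340, 225 and 316 normalized reads under vehicle and 671, 432 and 826 in the treated livers (log2 fold change 1.1, SE 0.298). Fdps, which makes farnesyl diphosphate, had 1395, 1248 and 1042 against 2328, 2447 and 2725 (1.03, SE 0.264). In both genes each ginkgetin library lay above each vehicle library, and their limma adjusted p were 0.123 and 0.113. Both carry 2 CCAAT boxes in the stretches above. The promoters of Mvk and Mvd, whose groups overlap, hold CCAAT boxes as well, and the Dhcr7 stretch holds 0. A link between these boxes and the fold changes was not tested.

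All 11 enzymes from squalene to cholesterol had higher means with ginkgetin, 8 of them without overlap. Over all genes tested the shares were 48.6% and 11.4%. The 20 hepatocyte markers all had higher means too, 7 of them without overlap. Fdft1, squalene synthase, had 957, 727 and 547 normalized reads under vehicle and 1277, 1457 and 1509 in the treated livers (0.96, SE 0.271). Sqle, squalene epoxidase and a rate-limiting step, had 272, 289 and 330 against 338, 373 and 515, at a smaller log2 fold change of 0.44 (SE 0.236). Lss, which closes the ring to lanosterol, had 79.5, 84 and 56.5 against 97.3, 164 and 131 (0.82, SE 0.339). These 3 genes follow one another in the route, and the groups do not overlap in any of them.

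Cyp51, the lanosterol demethylase, had 1902, 1392 and 1082 normalized reads under vehicle and 2186, 3692 and 3138 in the treated livers (1.05, SE 0.343). Tm7sf2, a sterol reductase of the next step, had 1069, 978 and 329 against 1688, 1908 and 1757 (1.35, SE 0.441). Nsdhl, a dehydrogenase that helps remove the methyl groups at C4, had 3004, 1776 and 629 against 3612, 3551 and 4248 (1.34, SE 0.540). For the last 2 genes vehicle replicate 3 lay far below the other vehicle libraries, and without it their log2 fold changes were 0.80 and 0.71. Msmo1 (0.66), Hsd17b7 (1.15) and Ebp (1.18), which act in demethylation, ketone reduction and isomerization, overlapped between groups, with unadjusted limma p from 0.0545 to 0.0602. Without vehicle replicate 3, Hsd17b7 lay at 0.61 and Ebp at 0.60.

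The last enzymes of the route did not overlap between groups either. Sc5d, the sterol desaturase, had 2180, 1075 and 567 normalized reads under vehicle and 2741, 2950 and 3352 in the treated livers (1.45, SE 0.469). Dhcr7, which makes cholesterol from its 7-dehydro precursor, had 674, 617 and 417 against 1254, 1134 and 1290. The ginkgetin libraries stood close together, and the difference was 2.19-fold (log2 fold change 1.13, SE 0.253, limma adjusted p = 0.0953). With any 1 library left out Dhcr7 lay between 0.92 and 1.27, Fdps between 0.92 and 1.13 and Hmgcs1 between 1.41 and 2.21.

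**Figure D2:**
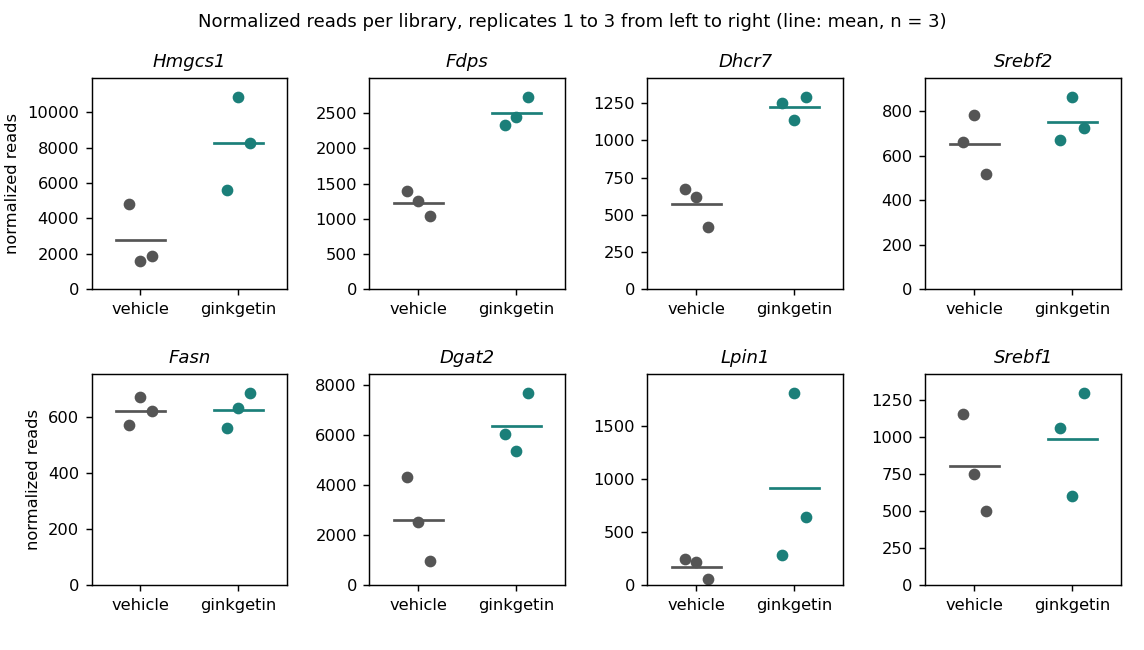
Normalized reads (y axis, from 0) of 8 members in each liver library, with vehicle and ginkgetin replicates 1 to 3 as points and the group mean as a line. Hmgcs1, Fdps, Dhcr7, Dgat2 and Lpin1 do not overlap between groups, while Srebf2, Fasn and Srebf1 do.

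None of the 3 regulators and carriers in the SREBP2 arm separated the groups. Srebf2, which encodes SREBP2, had 661, 783 and 520 normalized reads under vehicle and 672, 863 and 724 in the treated livers (0.21, SE 0.240, limma adjusted p = 0.633). Insig1, a target of the SREBP proteins that also restrains them, had 4632, 2363 and 503 against 1719, 10084 and 5830. Its groups overlap because ginkgetin replicate 1 lay below vehicle replicates 1 and 2, and its log2 fold change of 1.40 had an SE of 0.897, with 0.49 left without vehicle replicate 3. Stard4, a carrier of cholesterol between membranes, ranged from 85.3 to 292 with vehicle and from 189 to 408 with ginkgetin (0.47, and -0.10 without vehicle replicate 3).

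Fatty acid synthesis genes gave a mixed picture. Fasn, the fatty acid synthase, was at 568, 670 and 620 normalized reads under vehicle and at 558, 629 and 684 in the treated livers. The groups cover nearly the same range, at a log2 fold change of 0.01 (SE 0.206). Acly, which makes cytosolic acetyl-CoA from citrate, had 715, 492 and 576 against 776, 817 and 1091 (0.59, SE 0.248). Acss2, which makes it from acetate, had 351, 245 and 285 against 386, 469 and 652 (0.75, SE 0.265). Both enzymes that feed acetyl-CoA to the sterol and the fatty acid routes lay higher without overlap, with limma adjusted p of 0.234 and 0.180. The carboxylases Acaca (0.94, SE 0.561), which makes malonyl-CoA for synthesis, and Acacb (-0.06, SE 0.321), whose product restrains fatty acid oxidation, overlapped between groups, and lay at 0.34 and -0.39 without vehicle replicate 3. Me1 (0.35, SE 0.268), malic enzyme and a source of NADPH, also overlapped, and lay at 0.58 without that library.

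Transcription factors of this arm were not separated between the groups. Srebf1 had 1153, 748 and 501 normalized reads under vehicle and 1057, 599 and 1296 in the treated livers (0.31, SE 0.393, and 0.01 without vehicle replicate 3). Mlxipl had 1438, 1185 and 229 against 1583, 1216 and 2270 (1.16, SE 0.653), and 0.32 without vehicle replicate 3. Thrsp, a lipogenic protein induced by thyroid hormone and carbohydrate, ranged from 518 to 1022 with vehicle. It was at 716, 929 and 3067 with ginkgetin, so its mean there rests on replicate 3. Its log2 fold change was 0.69 (SE 0.543), and 0.38 without vehicle replicate 3.

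Triglyceride assembly genes held the largest difference of the 34. Lpin1, a phosphatidate phosphatase that is also a nuclear coregulator, had 246, 214 and 55.9 normalized reads under vehicle and 284, 1810 and 642 in the treated livers. The groups do not overlap, but ginkgetin replicate 1 lay just above vehicle replicate 1. The log2 fold change was 2.26 (SE 0.745, limma adjusted p = 0.168). Leaving out vehicle replicate 3 gave 1.59. Dgat2, the acyltransferase tied to newly made fatty acids, had 4304, 2508 and 965 against 6038, 5366 and 7664 (1.52, SE 0.550), with 0.94 without vehicle replicate 3. Dgat1, the other enzyme of that step, lay at 0.07 (SE 0.277), with values from 358 to 668 and from 507 to 581. Gpam (1.01, SE 0.634), the mitochondrial enzyme of the first step, overlapped between groups and lay at 0.17 without vehicle replicate 3. Pnpla3, a lipid droplet protein, had 2.21 to 12.7 normalized reads over the 6 libraries, and the lowest of these rests on 2 reads.

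**Figure D3:**
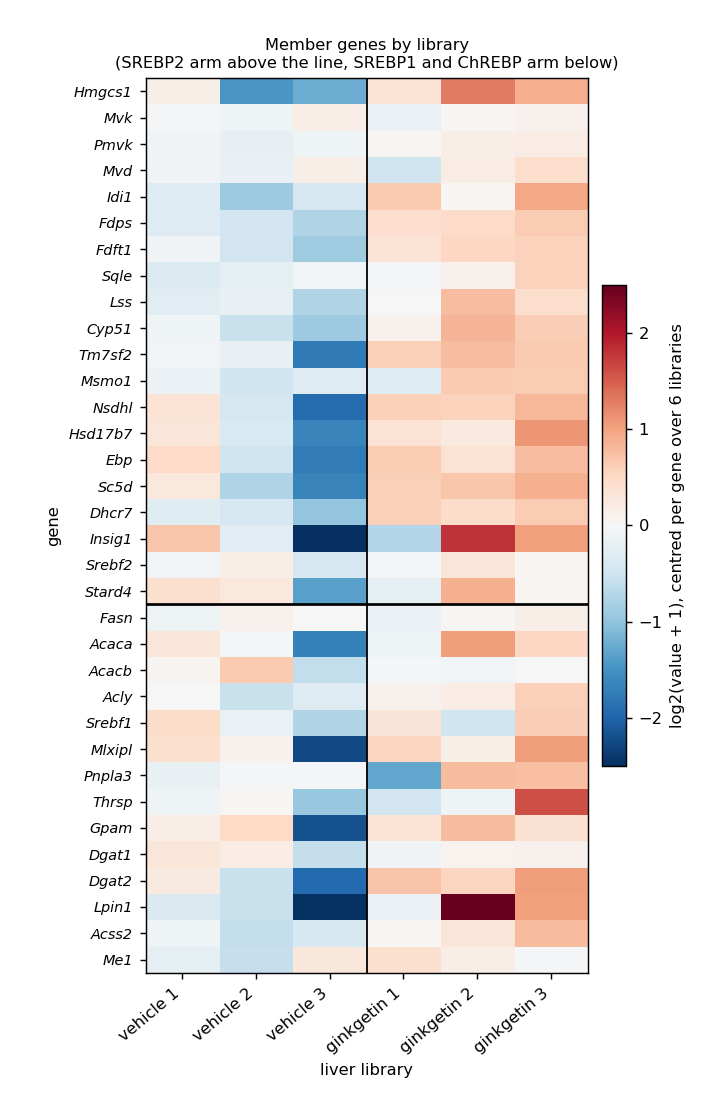
Heat map of the 34 members (rows) in the 6 liver libraries (columns), coloured by log2(value + 1) centred per gene. Most members are blue in vehicle replicate 3, where 22 of 34 have their lowest value, while Idi1, Sqle, Fasn, Acly and Acss2 are near their level in the other vehicle libraries.

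Set against each other within each library, the arms differed little. The mean log2 level of the SREBP2 arm minus that of the other arm, centred over the libraries, was -0.04, -0.28 and 0.03 for vehicle replicates 1 to 3 and 0.16, 0.14 and -0.01 for ginkgetin replicates 1 to 3. Vehicle replicate 3 lay above ginkgetin replicate 3, so the groups overlap, and without that library they do not. The group means were -0.10 ± 0.17 (SD, n = 3) and 0.10 ± 0.09 (SD, n = 3), a difference of 0.19. Leaving out vehicle replicate 3 gave a difference of 0.26, leaving out replicate 2 gave 0.096, and quantile normalization gave 0.11. With 3 libraries against 3 an exact permutation test cannot go below p = 0.1, so none was used here.

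Hepatocyte markers ranked the 6 libraries as the SREBP2 arm did. In centred log2 units their mean was -0.59 ± 1.28 (SD, n = 3) in the vehicle group, and in the ginkgetin group it was 0.59 ± 0.18 (SD, n = 3). The SREBP2 arm lay at 0.02, -0.39 and -0.96 in vehicle replicates 1 to 3 and at 0.17, 0.56 and 0.61 in the ginkgetin replicates, without overlap. The other arm lay at 0.05, -0.11 and -0.99 and at 0.01, 0.42 and 0.62, with ginkgetin replicate 1 below vehicle replicate 1. Of the hepatocyte markers 7 of 20 lay higher without overlap, against 11.4% of all genes. In bulk tissue, fewer hepatocytes and less RNA per hepatocyte cannot be told apart.

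**Figure D4:**
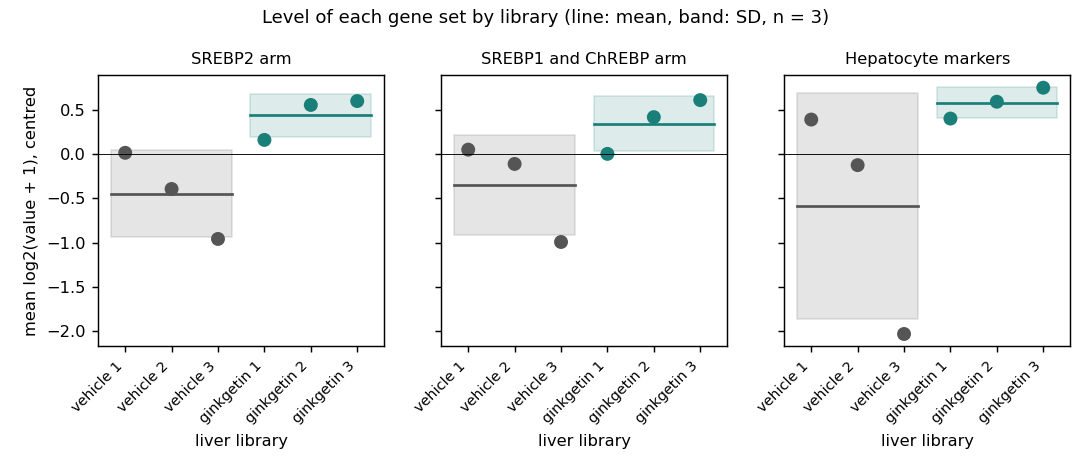
Mean log2(value + 1) of the SREBP2 arm, the SREBP1 and ChREBP arm and the hepatocyte markers in each library (x axis), centred over the 6 libraries, with the group mean as a line and the SD as a band. Vehicle replicate 3 is lowest in all 3 panels, at -0.96, -0.99 and -2.04.

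Relative to the hepatocyte markers few members were higher. With each library centred on those markers the median log2 fold change was -0.14 for the SREBP2 arm and -0.54 for the other arm, where all genes had a median of -1.20. Without overlap, 0 members lay higher, against 0.861% of all genes. Means were higher for 6 of 20 and 2 of 14 members, against 19 and 13 without centring, where 6.42% and 48.6% of all genes had higher means. The 8 were Hmgcs1 (0.53), Sc5d (0.27), Insig1 (0.22), Tm7sf2 (0.17), Nsdhl (0.16), Ebp (0.0043), Lpin1 (1.09) and Dgat2 (0.35). Centred in the same way and without vehicle replicate 3, 15 of 20 and 5 of 14 had higher means, against 17.5%, and 8 and 2 lay higher without overlap, against 3.48%, with medians of 0.20 and -0.12 beside -0.46 for all genes. In that setting Hmgcs1 (1.07, limma adjusted p = 0.0124) and Lpin1 (1.14, adjusted p = 0.0276) passed, where 8.01% of all genes passed and 0.69% were higher. With equal library totals, where all genes had a median of -0.53, the medians were 0.52 and 0.12, and 8 of 20 and 1 of 14 lay higher without overlap, against 3.68% of all genes.

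Members differed in how far vehicle replicate 3 lay from the mean of the other vehicle libraries. Insig1 lay at -2.72, Gpam at -2.52, Mlxipl at -2.51 and Lpin1 at -2.02 on the log2 scale, near the hepatocyte markers' median of -2.08. Fasn (0.01), Msmo1 (0.00), Acly (-0.04), Acss2 (-0.04), Pmvk (0.04), Idi1 (0.19) and Sqle (0.24) were close to the other vehicle libraries. Idi1, Acly, Acss2, Sqle and Pmvk are also among the 16 without overlap, and their log2 fold changes without vehicle replicate 3 were 1.16, 0.57, 0.74, 0.52 and 0.28. Me1 was higher there, at 0.68.

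The ginkgetin libraries varied most in a few members. Ginkgetin replicate 1 minus the mean of the others was -2.16 for Insig1, -2.08 for Pnpla3, -1.92 for Lpin1 and -1.24 for Thrsp on the log2 scale. It was 0.05 for Dhcr7, -0.10 for Nsdhl, -0.15 for Fdps and 0.08 for Ebp.

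Other genes of sterol balance included some larger differences. Of 25 such genes 7 lay higher without overlap and 1 lower, where 11.4% and 16.1% of all genes did. The lower gene was Abcg1 (-1.28, SE 0.575), named after its value was seen and at -0.54 without vehicle replicate 3. In limma 0 passed, and DESeq2 passed Abcg8, Abcg5 and Insig2, all higher, where it called 1.89% of all genes higher. Abcg8, a subunit of the transporter that sends cholesterol into bile, had 8.30, 2.495 and 1.84 normalized reads under vehicle and 74.1, 103 and 45.8 in the treated livers (3.98, SE 0.637, limma adjusted p = 0.0688). Abcg5, its partner, had 94.9, 14.1 and 22.7 against 161, 313 and 160 (2.63, SE 0.674). Insig2, a liver isoform of the SREBP anchor, had 2038, 566 and 271 against 4839, 5112 and 4148 (2.78, SE 0.648, adjusted p = 0.101). These lay higher than the hepatocyte markers too, at 2.81, 1.46 and 1.61 after centring on them. Without vehicle replicate 3, Abcg8 passed in limma (3.65, adjusted p = 0.0426), against 0.574% of all genes in either direction. Of the 84 genes called in that setting 17 were higher.

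Genes for supply, assembly and fasting outside the 34 did not pass in limma. DESeq2 passed 4 of them, Idh1, Angptl4 and Fgf21 higher and Acss1 lower, where it called 1.89% of all genes higher and 7.7% lower. Of 17 genes for carbohydrate and NADPH supply, 4 lay higher and 5 lower without overlap, where 11.4% and 16.1% of all genes did. Their median was 0.41, and 0.15 without vehicle replicate 3. Pklr, the liver pyruvate kinase, lay at 1.51 (SE 0.506) and Idh1, a source of NADPH, at 1.08 (SE 0.360). Acss1, the mitochondrial acetate enzyme, lay at -1.67 (SE 0.501). Of 15 glycerolipid genes 3 lay higher and 0 lower without overlap, with Acsl1, which activates fatty acids, at 2.12 (SE 0.852), Gpat3 at -1.65 (SE 0.735) and Acsl4 at 0.94 (SE 0.451). Pklr lay at 0.88, Acsl1 at 1.26 and Acsl4 at 0.49 when vehicle replicate 3 was left out. Among 12 genes of the fasting response 11 had higher means and 4 lay higher without overlap, at a median of 1.57. Without vehicle replicate 3, 8 had higher means and 4 lower, at a median of 0.68. The smallest p of these belonged to Angptl4 (1.63, SE 0.356), Fgf21 (1.83, SE 0.410) and Cpt1a (1.499, SE 0.543, and 0.90 without vehicle replicate 3). Of 13 clock genes, none of which separated the groups, 7 had higher means and 6 lower, at a median of 0.06. Without vehicle replicate 3, 5 clock genes had higher means and 8 lower, at a median of -0.28. Dbp (-2.16, SE 0.783), Per3 (-2.07, SE 0.753) and Per2 (-1.22, SE 0.627) had the smallest p of the clock genes, all with lower means. Dbp had 237, 739 and 817 normalized reads under vehicle and 69.7, 54.4 and 413 in the treated livers, so ginkgetin replicate 3 stood apart from replicates 1 and 2. The part of feeding state and hour of sampling in the members' values was not tested.

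Markers of other cell types mostly had lower means with ginkgetin. The summed normalized reads of 10 cholangiocyte markers ran from 2584 to 21282 with vehicle and from 578 to 1101 with ginkgetin. Of the upper vehicle value, Spp1 in vehicle replicate 3 gave 18034, against 612 and 372 in vehicle replicates 1 and 2. Of the 9 tested, 9 had lower means. For 9 stellate cell and myofibroblast markers, 9 with lower means, the ranges were 11054 to 128094 and 2968 to 5758. Their median log2 fold change was -2.36, and -1.28 without vehicle replicate 3, where Acta2 (0.83) and Lum (1.27) had higher means. For 8 macrophage markers, 5 with lower means, the ranges were 2973 to 25968 and 3538 to 6649. Of the upper vehicle value, Gpnmb in vehicle replicate 3 gave 16727.5, against 380 and 729 in vehicle replicates 1 and 2. The 10 proliferation markers ran from 862 to 4181 and from 510 to 870, and the 8 lymphocyte markers from 192 to 310 and from 108 to 161, with lower means throughout. The 5 adipocyte markers in the table summed to 2953 to 14383 and to 1703 to 1861. Of these Adipoq, which defines fat cells, had at most 2.31 normalized reads. Fabp4 and Lpl, which other cells also express, lay at log2 fold changes of -5.61 (SE 0.961) and -2.70 (SE 0.663). Without vehicle replicate 3 they lay at -4.41 and -2.08. Cidea (-0.08, SE 0.476) and Cidec (1.26, SE 0.582) overlapped between groups, and Cidec lay at 0.54 without vehicle replicate 3. The part of the other cell types in the members' values was not tested.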

How the data were processed

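RNA sequencing of rat liver gave 6 libraries, 3 vehicle and 3 ginkgetin, prepared by a SMARTER mRNA-Seq protocol (per the labels). Per the submitters' processing notes, the build is mRatBN7.2. The sources used here do not name the aligner, counter, annotation or strand setting, and overlapping and near-identical genes cannot be told apart. The deposited values are a signal, reads per gene divided by 1 factor per library, and the deposited table names no normalization. In each library at least 99.67% of values were whole multiples of the smallest within 0.02 reads, which recovered 13372367 to 14933853 reads per library.

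The main test was limma 3.58.1 (R 4.3.3) on log2(value + 1) with its trend and robust options. It covered genes reaching 1 in no fewer than 3 libraries, and was adjusted by Benjamini-Hochberg over 14639 genes. EdgeR 4.0.16 and DESeq2 1.42.0 on recovered reads, other scalings, filters and pseudocounts, a replicate block and leaving out each library were alternatives. Groups were said not to overlap where the 3 values of one lie above the 3 of the other. Hepatocyte centring subtracts each library's mean log2 level of 20 hepatocyte markers. No 2 libraries were duplicates (chi-square of reads per degree of freedom at least 49.9). Members and lists were chosen with earlier results of these data known. Per-library values are given for members without overlap, with an unadjusted p under 0.05, or named as regulators; up to 3 genes with the smallest p are named per list, and some other genes the rule names are not reported here. Promoters came from RefSeq GRCr8, another assembly than that of the table, matched by symbol.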

Additional observations from a re-analysis of the deposited data

How the results depend on the processing

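Adding 0.5 or 5 in place of 1, no filter or a minimum of 10, TMM scaling, the replicate block and limma without trend and robust options changed no member's direction or call, except that Pnpla3 was not tested at the minimum of 10. The number of genes called over the whole table, 2 with the settings of the report, was 5 with a pseudocount of 5, 1 with quantile normalization, 94 with equal library totals, 1072 with hepatocyte centring, 27 without trend and robust options, 0 with the replicate block, 0 with edgeR and 1339 with DESeq2. DESeq2 called 6 SREBP2 arm members and 1 of the other arm. Leaving out 1 library in turn, limma called 0 to 696 genes, 0 to 3 SREBP2 arm members and 0 of the other arm, with SREBP2 arm medians from 0.65 to 1.19 and medians of the other arm from 0.33 to 0.90. The lowest medians of both arms came without vehicle replicate 3. Deviations of same-numbered libraries from their group means correlated across genes at -0.16, 0.03 and -0.21, and those of other vehicle and ginkgetin pairs at -0.10 to 0.20. Deviations from a mean of 3 libraries depend on one another, so these values cannot decide whether replicate numbers pair the libraries. With the block 9 of 20 SREBP2 arm genes and 3 of 14 of the other arm had an unadjusted limma p under 0.05, all higher. Over all genes, 2382 of 14639 had such a p in either direction.

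With equal library totals the arm medians were 0.52 and 0.12, and 1 gene of the SREBP1 and ChREBP arm lay higher without overlap. Signs then turned for 10 members, with Pmvk at -0.25, Mvd at -0.44, Sqle at -0.081, Srebf2 at -0.31, Stard4 at -0.052, Fasn at -0.51, Srebf1 at -0.21, Pnpla3 at -0.28, Dgat1 at -0.45 and Me1 at -0.17. With hepatocyte centring the arm medians were -0.14 and -0.54, with 0 members of the SREBP2 arm and 0 of the other higher without overlap. Signs turned for 24 members, with Pmvk at -0.90, Mvd at -1.09, Idi1 at -0.076, Fdps at -0.14, Fdft1 at -0.22, Sqle at -0.74, Lss at -0.36, Cyp51 at -0.13, Msmo1 at -0.52, Hsd17b7 at -0.027, Dhcr7 at -0.043, Srebf2 at -0.96, Stard4 at -0.71, Fasn at -1.17, Acaca at -0.23, Acly at -0.59, Srebf1 at -0.87, Mlxipl at -0.016, Pnpla3 at -1.003, Thrsp at -0.49, Gpam at -0.17, Dgat1 at -1.11, Acss2 at -0.42 and Me1 at -0.82. Hepatocyte centring without vehicle replicate 3, chosen after seeing the data, gave 1172 calls, 1 in the SREBP2 arm and 1 in the other, arm medians of 0.20 and -0.12 and 2 members of the second arm higher without overlap. Signs turned for 12 members, with Pmvk at -0.17, Mvd at -0.27, Srebf2 at -0.39, Stard4 at -0.55, Fasn at -0.44, Acaca at -0.11, Srebf1 at -0.44, Mlxipl at -0.13, Pnpla3 at -0.25, Thrsp at -0.066, Gpam at -0.28 and Dgat1 at -0.66. Quantile normalization put Mvk at 0.14, Fasn at -0.15 and Dgat1 at -0.018, and edgeR Fasn at -0.013 and Dgat1 at -0.0042. With 1 library left out the log2 fold changes ran as follows, Mvk from -0.0735 to 0.0661, Fasn from -0.0602 to 0.0861, Pnpla3 from -0.183 to 0.865, Mvd from -0.117 to 0.355, Acacb from -0.387 to 0.247, Stard4 from -0.0995 to 0.782 and Dgat1 from -0.214 to 0.235. Apart from the construction of the centrings, the cause of these turns was not tested. Pnpla3, at 2 reads in 1 library, is limited by depth.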
